A study of Drosophila melanogaster with 2 samples.

Results

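Distal intergenic summits are the binding sites of the tagged Drosophila homeodomain protein OdsH that lie outside all annotated genes and away from all annotated start sites. They were chosen by position alone: the summit, the point of highest signal within a peak, had to lie in no annotated gene and more than 2000 bp from the nearest transcript start of any gene, with transposable elements left out of the annotation. Of 7223 peaks that passed the authors' threshold on reproducibility, 728 met the rule, or 10.08% (95% Wilson interval 9.406 to 10.79%). The other summits were 1849 in intergenic sequence within 2000 bp of a start (near intergenic), 1673 in introns over 2000 bp from a start (far intron) and 2973 elsewhere.

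The peaks come from Drosophila melanogaster larvae that were wandering at the end of the third instar, in 1 group of 2 biological replicates, and the design holds no second condition. Whole larvae of both replicates carried OdsH tagged with GFP at its C terminus, expressed from a transgene, and chromatin was sonicated to a size range of 200 to 800 bp and precipitated through the GFP tag. Sex was not collected. Whole larvae mix all tissues, so a peak gives no cell type. Read numbers are not known for these peaks, so their depth is unknown. Intervals and tests below are over summits or sequence and cover counting error only; neighbouring summits are not independent samples.

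Sequence far from promoters holds many of the enhancers and silencers that set where and when developmental genes of Drosophila are transcribed, often from long intergenic intervals beside genes for transcription factors and signalling proteins. OdsH is a homeodomain protein, encoded next to its paralog unc-4, and is known from hybrid male sterility between Drosophila species. Homeodomains of its kind recognise DNA with the core TAAT, which reads ATTA on the opposite strand.

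The sequences below show what lay within 50 bp of distal summits: those of 3 of the 4 strongest members, those beside the developmental genes hry, vvl, hid, dpp and ems, and those beside OdsH and unc-4. All are the plus strand of dm6 (Release 6), 5′ to 3′, in lower case with TAAT or ATTA in capitals. A core in a sequence is a match of letters and not a measured contact. Beside a gene, here and below, means in an interval that the gene borders, at any distance. The summits of these windows lay 52634 bp from vvl, 23464 bp from hry, 21530 bp from dpp, 17948 bp from Tollo, 17399 bp from ems and 7345 bp from hid. Those beside hry and dpp lay nearer to the other flanking gene, 16232 bp from SrpRbeta and 6844 bp from Slh. The window between COX7AL2 and CG31668 is chr2L:2202364-2202464, and its peak had a signal of 2011, where signal is the authors' own value for the peak, in an unstated unit.
COX7AL2 and CG31668: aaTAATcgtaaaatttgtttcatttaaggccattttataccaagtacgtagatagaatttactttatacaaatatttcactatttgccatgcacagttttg
The window between CG43245 and CG12523 is chr3L:10776510-10776610, at signal 1633, and both of its cores lie in 1 overlapping TAATTA.
CG43245 and CG12523: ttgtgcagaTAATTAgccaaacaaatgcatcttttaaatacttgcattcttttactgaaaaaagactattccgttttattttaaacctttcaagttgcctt
The window beside Tollo, which encodes a Toll-family receptor, is chr3L:15260730-15260830, at signal 897.7.
Tollo and Best4: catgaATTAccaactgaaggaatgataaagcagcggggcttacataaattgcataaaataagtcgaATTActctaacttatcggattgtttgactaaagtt
The window beside hry, the pair-rule and neurogenic repressor hairy, is chr3L:8702667-8702767, at signal 873.4.
hry and SrpRbeta: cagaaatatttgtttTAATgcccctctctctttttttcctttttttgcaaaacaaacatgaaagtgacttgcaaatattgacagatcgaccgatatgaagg
The window beside vvl, which encodes a POU homeodomain protein of trachea and neurons, is chr3L:6847525-6847625, at signal 360.5, with 3 cores.
vvl and Prat2: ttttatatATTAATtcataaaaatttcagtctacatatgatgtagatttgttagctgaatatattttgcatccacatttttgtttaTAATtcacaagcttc
The window beside the cell death gene hid is chr3L:18192936-18193036, at signal 566.2.
hid and CG7320: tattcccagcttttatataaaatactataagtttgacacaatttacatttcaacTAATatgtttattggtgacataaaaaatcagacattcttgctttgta
The window beside dpp, which encodes a BMP ligand, is chr2L:2481303-2481403, at signal 492.6, and holds 0 cores.
dpp and Slh: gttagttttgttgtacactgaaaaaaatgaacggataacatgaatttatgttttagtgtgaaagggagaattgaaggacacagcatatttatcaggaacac
The window beside the head gap gene ems is chr3R:13921969-13922069, at signal 406.3, with 3 cores.
ems and Art9: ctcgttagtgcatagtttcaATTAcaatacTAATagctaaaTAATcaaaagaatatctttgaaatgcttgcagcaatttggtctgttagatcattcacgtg
The window past the end of OdsH is chrX:17814950-17815050, at signal 430.9.
OdsH and CG12986: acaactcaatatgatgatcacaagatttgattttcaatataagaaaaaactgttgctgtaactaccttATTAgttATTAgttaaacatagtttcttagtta
The window upstream of unc-4 is chrX:17760675-17760775, at signal 510.3.
raskol and unc-4: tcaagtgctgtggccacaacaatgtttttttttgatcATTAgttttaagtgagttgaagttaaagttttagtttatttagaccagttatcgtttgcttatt
A and T made up between 66.34 and 77.23% of these windows.

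The densest binding of intergenic sequence was at starts, and it fell off with distance in steps. Intergenic sequence within 0.5 kb of a start held 328.8 summits per Mb (95% exact Poisson interval 312.1 to 346.2). Beyond the 2000 bp limit the density was 37.22 per Mb (33.33 to 41.43, 334 summits) from 2 to 5 kb and 35.87 per Mb (31.62 to 40.53, 257 summits) from 5 to 10 kb, and these intervals overlap. It was 21.64 per Mb (17.75 to 26.13, 108 summits) from 10 to 20 kb and 3.745 per Mb (2.508 to 5.378, 29 summits) beyond 20 kb. Of the 7.744 Mb beyond 20 kb, 4.450 Mb were free of repeat masking in the reference, so repeats take up much of the sequence where the density was lowest; their part in the decline was not tested.

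**Figure D1:**
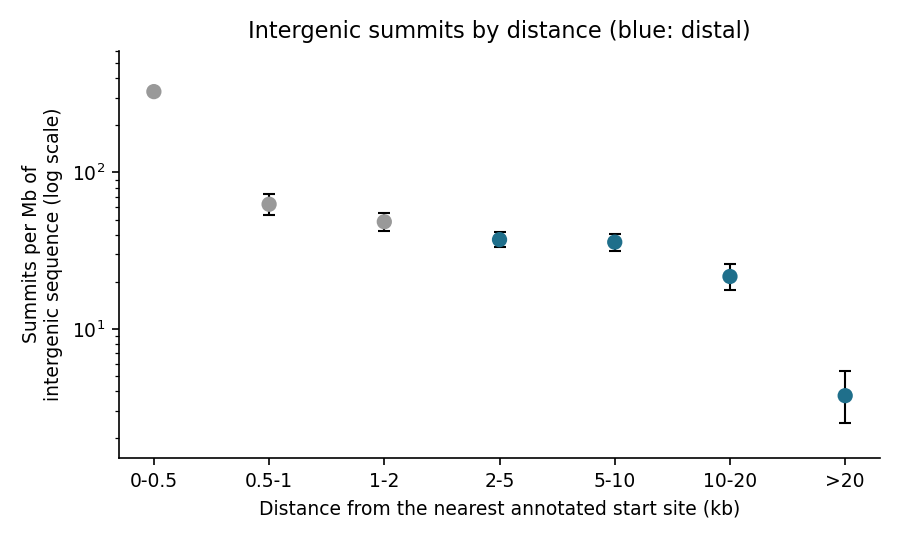
Summits per Mb of intergenic sequence (log scale) by distance from the nearest annotated start site (kb), with exact 95% Poisson intervals; blue points are the distal bins. The density was 37.22 per Mb from 2 to 5 kb and 3.745 per Mb beyond 20 kb.

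Distal intergenic sequence as a whole held 25.21 summits per Mb (23.41 to 27.11) over 28.87 Mb. Of 120 intervals between neighbouring coding genes longer than 50 kb, 86 held no member. The longest of these was 710.7 kb, on 3L. The part of such intervals in the densities, the arm shares and the decline with distance was not tested. Introns over 2000 bp from a start held 40.44 per Mb (38.53 to 42.43), so the ratio of distal intergenic to far intron density was 0.6234 (exact binomial test, two-sided, adjusted p = 9.97e-28). Without repeat-masked sequence this ratio was 0.664. Near intergenic sequence held 156.7 per Mb (149.6 to 164.0). The median member lay 5430 bp from a start, with quartiles at 3580 and 8776 bp. The nearest start belonged to a coding gene at 453 members and to a noncoding gene at 275.

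The limit of 2000 bp falls in a continuous range of distances. Just inside it, summits at 1970, 1976 and 1990 bp had signals of 136.4, 246.9 and 180.2. Just outside, members at 2002, 2003 and 2018 bp had signals of 111.2, 160.7 and 190.5. The member at 2003 bp lay between the spalt genes salr and salm, which encode zinc finger proteins of the wing and sensory organs.

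Distal binding was unevenly spread over the chromosome arms. Arm 3L carried 268 members, or 36.81% of them, on 25.58% of the eligible sequence (exact binomial test against the arm's share of eligible sequence, two-sided, Benjamini-Hochberg over 6 arms, adjusted p = 1.57e-10). The X carried 55 members, 7.555% on 14.34% of the sequence, and 2R carried 96, 13.19% on 21.25% (exact adjusted p = 5.60e-08 for each). The shares of 2L (142 members, exact adjusted p = 0.280), 3R (163, adjusted p = 0.280) and chromosome 4 (4, adjusted p = 1.00) did not pass the threshold of 0.05. Intervals without a member reached 326.8 kb on 2R, 512.9 kb on the X and 710.7 kb on 3L. The part of such empty intervals in these arm shares was not tested.

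In density, 3L held 36.28 members per Mb (32.06 to 40.89), the X 13.28 (upper bound 17.29) and 2R 15.65 (12.67 to 19.11). Far intron summits on the X reached 44.23 per Mb (39.74 to 49.08) and on 3L 42.05 (37.70 to 46.77), with overlapping intervals. The difference between classes in how arms were filled was not itself tested. Without the hng3 and NijA intervals, which hold 17 members each on 3L, the 3L excess of 11.2 percentage points was 8.42 points (exact adjusted p = 1.49e-06).

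**Figure D2:**
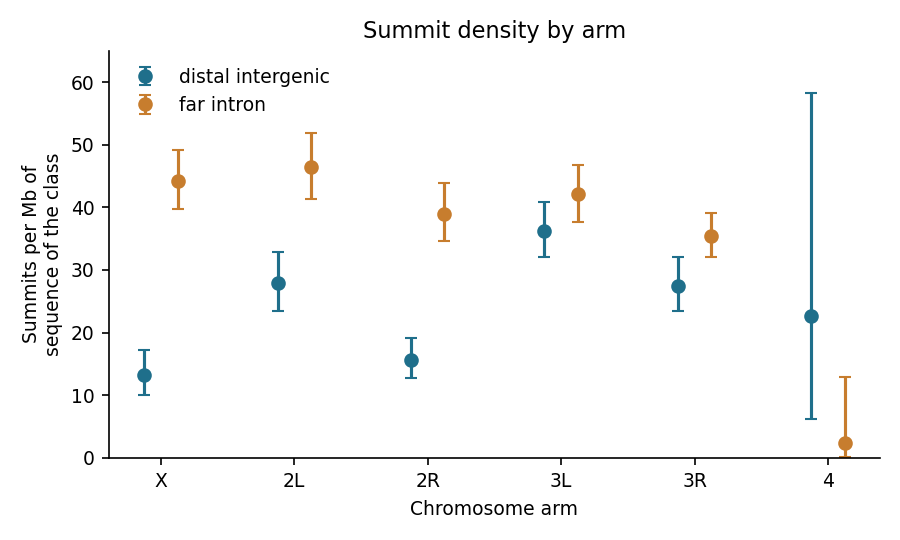
Summits per Mb of distal intergenic sequence (blue) and of far intron sequence (orange) on each chromosome arm, with exact 95% Poisson intervals. Distal members reached 36.28 per Mb on 3L and 13.28 per Mb on X, and far intron summits 42.05 and 44.23 per Mb there.

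Distal summits gathered in a small number of intergenic intervals, each interval being the sequence between neighbouring coding genes. Of 2673 intervals with eligible sequence, 317 (11.86%) held a member. A single member was found in 172 of them, while 90 intervals held 3 or more and together 446 members (61.26%). The 39 intervals with 5 or more held 278 members, and 19 of these intervals were on 3L, 9 on 3R, 8 on 2L, 2 on 2R and 1 on X. Intervals with a member had a median length of 17.82 kb, against 5.835 kb for those without. Of 512 intervals over 20 kb, 146 (28.52%) held a member.

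The fullest intervals were on 3L. Between hng3 and CG13898, 17 members lay within 41.62 kb, with signals from 112.1 to 818.3 and a median of 232.3. Between NijA, which encodes a Ninjurin membrane protein, and CG43245, another 17 lay within 65.09 kb, from 112.0 to 738.5. Both intervals thus held members near the lower limit of the list as well as some of the 20 strongest of the class. Between Aps and CG14147 lay 13 members, none above 256.2.

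The densest of the intervals with 5 or more members lay beside sty, which encodes Sprouty, an inhibitor of receptor tyrosine kinase signalling. There 11 members fell in the 21.07 kb between Ids and sty, or 651.5 per Mb of eligible sequence, and the strongest had a pooled signal of 493.1, with 214.4 in replicate 1 and 269.0 in replicate 2. Beside hid, which triggers apoptosis by blocking the caspase inhibitor Diap1, 5 members lay in 15.85 kb, and their pooled signals were 566.2, 491.4, 254.5, 178.2 and 116.6. The hid member at 566.2 had 239.0 in replicate 1 and 347.2 in replicate 2. Between CG18404 and heca lay 8 members, with the highest median of the intervals with 5 or more, 537.0. The gene heca is headcase, of imaginal and tracheal development. Of these members, 6 ranged from 404.4 to 633.9 and the remaining ones were at 143.7 and 135.3. All 8 lay nearer to CG18404, at 1496 to 11539 bp, than to heca, at 12296 to 22339 bp.

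The gene hry was flanked on both sides. On the side of SrpRbeta lay 7 members with a strongest signal of 873.4 and a median of 200.2, and on the side of Pex7 lay 6 with a strongest signal of 549.5 and a median of 386.8. The homeobox gene hth, whose product is a cofactor of Hox proteins, also had 6 on each side, but they were weaker, with medians of 123.1 and 124.7. The ecdysone-response genes Eip93F and Eip75B bordered intervals of 7 members (strongest 503.6) and 5 members (strongest 144.7). The segment polarity gene en shared 7 members with tou, none above 192.4.

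**Figure D3:**
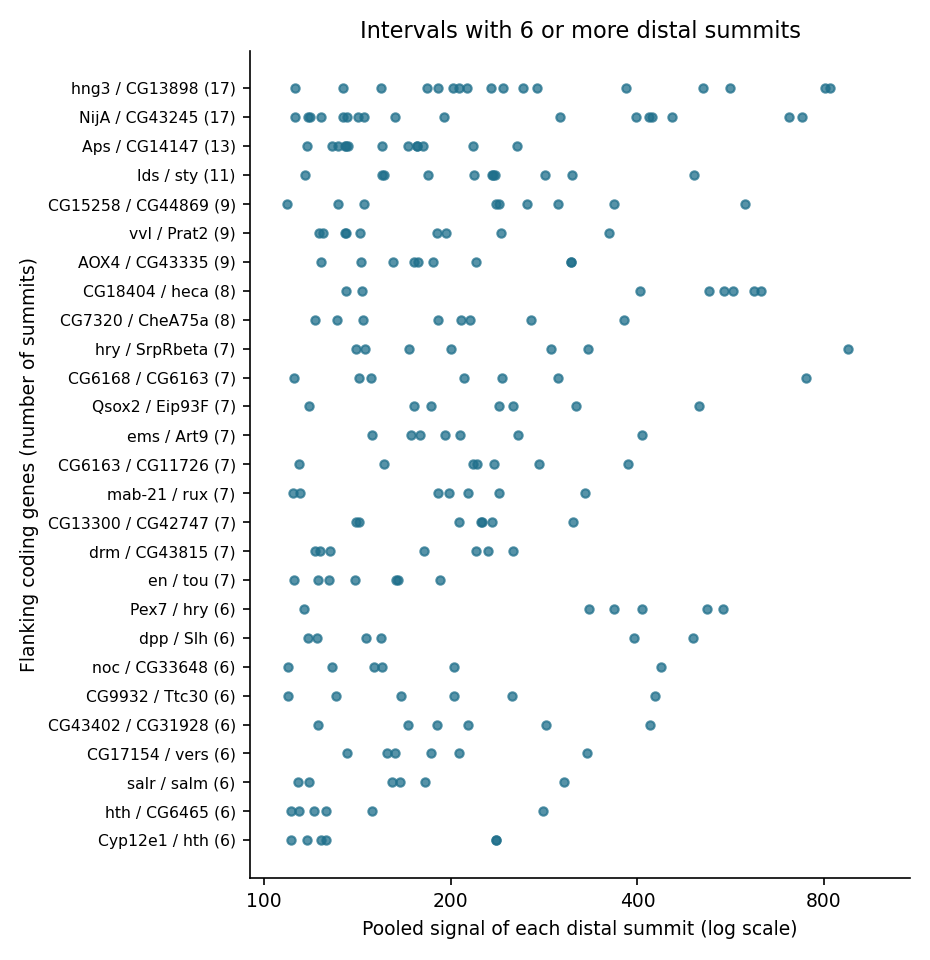
Pooled signal (log scale) of each distal summit in the intervals that hold 6 or more, labelled by the flanking coding genes with the number of summits. Signals within an interval span much of the range of the class, from 112.1 to 818.3 between hng3 and CG13898. The 8 between CG18404 and heca have a median of 537.0, and those beside hth medians of 123.1 and 124.7.

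By count, developmental genes flanked distal summits at higher shares than coding genes as a whole. Of all 13945 coding genes, 567 (4.07%) flanked a member. Among homeobox genes 29 of 93 did (31.18%), among other developmental transcription factor genes 43 of 127 (33.86%), and among genes for signalling ligands, receptors and regulators 22 of 89 (24.72%). Such genes often border long intervals, so the same was counted among genes that border eligible sequence at all: there 13.46% of coding genes flanked a member, against 35.80%, 46.74% and 43.14% for those 3 lists. These are counts with no test of a list, and the lists were chosen with earlier results known.

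Cell surface and axon guidance genes gave 14 of 97 (14.43%; 17.72% of those bordering). Chemosensory genes flanked a member at 10 of 230 (4.348%; 11.36% of those bordering), near the share over all coding genes. Cuticle protein genes did at 2 of 122 (1.639%; 6.061% of those bordering) and ribosomal protein genes at 2 of 92 (2.174%; 10.53% of those bordering). Together, 258 members (35.44%) lay beside a gene of the homeobox, transcription factor or signalling lists, while 14.17% of the eligible sequence did. Of the 39 intervals with 5 or more members, 19 (48.72%) were beside such a gene, against 319 of all 2673 (11.93%). Length was not matched in this comparison: those 39 ran from 14.66 to 117.1 kb, and intervals without a member had a median of 5.835 kb.

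Among homeobox genes, the strongest member lay near pdm3, which encodes a POU protein of olfactory neurons, with a signal of 532.2 (268.0 in replicate 1, 264.4 in replicate 2). The next was upstream of unc-4, at 510.3 (226.7 and 283.3), 7844 bp from the gene. OdsH itself was followed by 4 members in the 5.143 kb between its end and CG12986. Their pooled signals were 430.9, 327.0, 235.9 and 117.8, and the nearest lay 287 bp past the gene. The strongest of them had 196.5 in replicate 1 and 240.8 in replicate 2. Among intervals with 3 or more members, 2 held more members per Mb of eligible sequence than this one. The homeobox genes vvl and ems bordered 10 and 7 members, at strongest signals of 360.5 and 406.3.

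Among other transcription factor genes, the strongest members lay beside kay, the Drosophila Fos gene, at 894.9 (369.9 and 543.4 in the replicates), hry at 873.4 (389.4 and 486.6), foxo, which encodes a transcription factor of insulin signalling, at 866.1 (416.9 and 488.6), and elB, a zinc finger gene, at 823.3 (409.5 and 440.9). The T-box genes mid and H15 bordered 9 and 8 members, and 4 of these lay between H15 and mid and count for both.

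Among signalling genes, the strongest lay beside Tollo at 897.7 (414.0 and 516.1), ex, a growth regulator upstream of Hippo, at 784.1 (320.6 and 451.7), fj, a Golgi kinase gene of planar polarity, at 777.6 (369.5 and 419.5), and Wnt10 at 513.0 (249.8 and 276.7). The member at 777.6 lay 33551 bp from fj and 5745 bp from Ote, the other flanking gene. The Wnt ligand genes wg and Wnt6 bordered 6 and 4 members, and 3 of these lay between wg and Wnt6 and count for both. The gene hh bordered 4, dpp 6, the Notch ligand gene Ser 6 and the Egfr ligand gene vn 5. Among cell surface genes the strongest was beside robo2, an axon guidance receptor gene, at 479.5 (231.2 and 258.8).

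Distal summits covered the range of signals seen in the list, with fewer above its median than among near intergenic summits. Their pooled signal ran from 108.7 through quartiles of 134.1 and 277.3 to 2244, with a median of 185.6, against 188.0 over all peaks. The median was 179.5 for far intron and 200.1 for near intergenic summits. The share of members above the median of all peaks was 48.76%, against 46.74% of far intron summits, a difference of 2.02 percentage points (interval -2.315 to 6.361, Fisher's exact test, adjusted p = 0.506). Near intergenic summits were above it more often, at 54.62%, a difference of -5.86 points (interval -10.12 to -1.577, exact adjusted p = 0.0225); taking replicate 2 alone gave -4.75 points (adjusted p = 0.0958).

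Members were rarer at the top of the list. They made up 5.200% (interval 3.573 to 7.510%) of the 500 strongest peaks of the pooled list, 9.800% (7.492 to 12.72%) of the following 500, and 10.36% (9.358 to 11.46%) of those in the lower part of the thresholded list, past rank 4000. In the 30000 peaks of the relaxed pooled list, which was not thresholded, 3628 were distal, and their share reached 13.87% (13.32 to 14.43%) over ranks 15001 to 30000. Only 3 members were among the 100 strongest peaks.

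The strongest member lay on 2R between Su(z)2, a Polycomb group gene, and CG13323, at 27425 bp from Su(z)2 and 9359 bp from CG13323. Its pooled signal was 2244, with 1037 in replicate 1 and 1257 in replicate 2. Its rank was 14 among the pooled peaks, 11 for replicate 1 and 17 for replicate 2. The member between COX7AL2 and CG31668 had 2011 (846.3 and 1187) and the one between CG43245 and CG12523 had 1633 (658.7 and 1015). The fourth, beside Tollo, was at 897.7, so these members stood apart from the rest of the class in both replicates. The other 17 of the 20 strongest ran down to 738.5, the one at that value being between NijA and CG43245; they included members beside RYBP (822.5), a Polycomb-associated gene, Gr93d (854.0), a gustatory receptor gene, and the odorant-binding protein genes Obp56g and Obp56h (844.2). None of the 20 ranked below 409 in replicate 1 or 356 in replicate 2.

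Signals in the separate replicates followed each other across members. Over 726 members with a partner within 200 bp in both lists, the rank correlation was 0.8474, given as a description since the points share the pooled list. It was 0.8500 for near intergenic and 0.8172 for far intron summits. The median signal of the partners was 85.65 in replicate 1 and 105.3 in replicate 2, and the median summit offsets were 15 and 10 bp. Neighbouring members can share a partner, which was so for 44 in replicate 1 and 38 in replicate 2.

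By the stricter count, 603 members (82.83%) had a summit within 200 bp among the 7223 strongest peaks of each replicate, against 82.2% of all thresholded summits. The difference from all other summits was 0.674 percentage points (interval -2.375 to 3.410, Fisher's exact test, adjusted p = 0.683). A match in a single replicate was found at 118 members and in neither at 7.

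**Figure D4:**
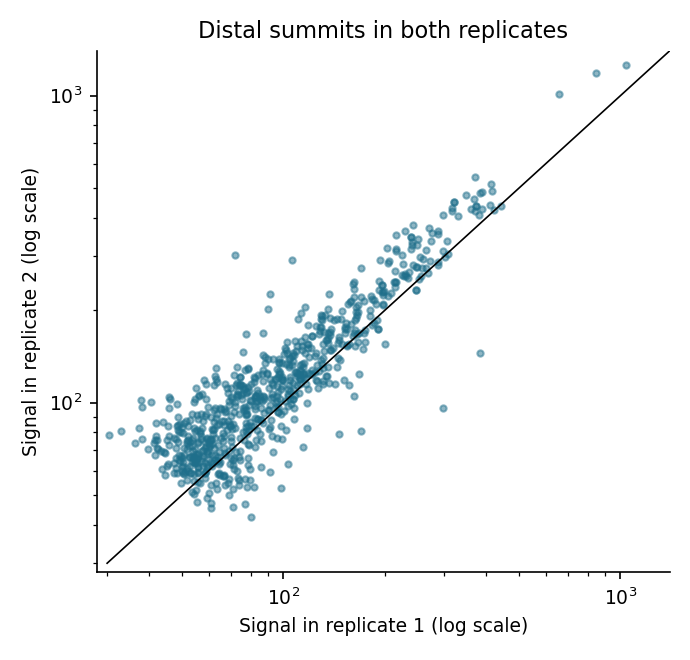
Signal of the partner peak in replicate 1 and in replicate 2 (log scales) for each of the 726 distal summits with a partner within 200 bp in both; the line marks equal signal. The 3 strongest members stand apart at the upper right, and most points lie above the line, with medians of 85.65 and 105.3.

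The 5 members farthest from a start lay in 2 intervals. Between AOX4 and CG43335 on 3R, members at 39333, 39134 and 35960 bp had pooled signals of 176.9, 123.6 and 312.0. Between NijA and CG43245, members at 34633 and 33590 bp had 123.4 and 141.9. The first AOX4 pair share 1 partner peak in each replicate.

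The share of members near another summit was not detectably different from that of far intron summits. Another thresholded summit lay within 5 kb of 501 members (68.82%), against 70.5% of all summits and 71.01% of far intron ones, a difference of -2.19 percentage points (interval -6.248 to 1.752, Fisher's exact test, adjusted p = 0.285). Another member lay within 5 kb of 434 (59.62%). The orientation of flanking genes differed modestly: 26.37% of members lay between divergent genes, on 22.37% of the sequence (exact binomial test, adjusted p = 0.0335), but this passed the threshold in neither the summits above the median signal (1.57 points, adjusted p = 0.877) nor with replicate 2 alone (2.97 points, adjusted p = 0.167). Convergent intervals held 23.21% of members on 25.59% of the sequence (exact adjusted p = 0.223).

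The base composition at distal summits changed over a short distance. A and T made up 68.12% ± 8.023 (SD, n = 728 summits) within 50 bp of the summit and 54.02% ± 8.752 in a flank window of the same size, 400 bp towards lower coordinates. It was higher at the summit for 633 members and lower for 92 (exact sign test, two-sided, p = 3.62e-100), with a median difference of 14.9 percentage points. Averaged over members, it peaked at 69.43% at the summit, reached its lowest value of 52.08% at 240 bp and was 58.39% at 1 kb, near the 59.03% of all eligible sequence. The drop on both sides thus went below the level of distal sequence in general.

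The same means were 66.85% and 54.76% for near intergenic summits, 66.74% and 56.05% for far intron ones and 63.67% and 56.35% for the others. The difference between summit and flank was 14.10 percentage points for members, 12.10 and 10.69 for near intergenic and far intron summits and 7.316 for the rest, given without a test between classes.

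**Figure D5:**
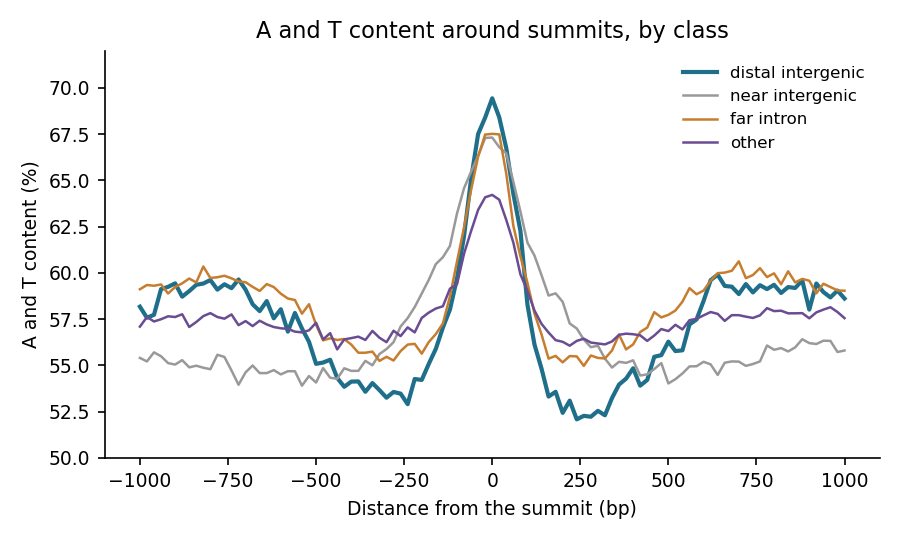
Mean A and T content (%) against distance from the summit (bp) for distal intergenic, near intergenic, far intron and other summits. The distal curve peaks at 69.43% at the summit, falls to 52.08% at 240 bp and returns to 58.39% at 1 kb.

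Of 29 motifs searched on both strands, 6 (20.7%) were more frequent within 50 bp of the summit than in the flank and 3 (10.3%) less frequent (exact McNemar test, adjusted p under 0.05). The list spells one AP-1 site in both directions, so it holds one motif in duplicate. The homeodomain core TAAT was found in 80.63% of summit windows and 55.22% of flanks (exact adjusted p = 8.10e-23). TATAAA, the TATA box letters, was in 22.39% against 8.104% (exact adjusted p = 3.41e-13), and the Exd and Hox composite TGATNNAT in 10.44% against 5.220% (adjusted p = 9.08e-04). TGCATA, the core of the insulator protein Su(Hw), was in 11.95% against 6.731% (exact adjusted p = 0.00375). Without replicate 1, the difference for TGCATA was 3.03 percentage points, against 5.22 over both replicates, and it did not pass the threshold (exact adjusted p = 0.123).

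Facing TAAT and ATTA cores spaced by 2 bases were in 1.648% of summit windows, or 12 members, and 0.1374% of flanks (exact adjusted p = 0.0124). Each also holds TAAT. Among windows with 60 to 70% A and T, these facing cores were in 1.103% of summits (0.3758 to 3.192%) and 0% of flanks (0 to 2.634%). With 70 to 80% the shares were 2.469% (1.256 to 4.796%) and 0% (0 to 12.46%), and with 50 to 60% they were 0% and 0.3311%. Summit and flank intervals overlap in each range. Near intergenic summit windows held these cores at 1.731% and far intron ones at 0.8966%. Among those 12 members were one 2524 bp past the end of OdsH (signal 327.0), one beside Ser (404.7) and one between salr and salm (160.7). Facing cores spaced by 3 bases showed no difference, at 0.5495% of summit windows and 0.5495% of flanks, or 4 windows each. The longer cores TAATTA, in 9.478% against 6.593% (exact adjusted p = 0.132), and TAATTG, in 11.54% against 9.615% (adjusted p = 0.379), did not pass. The AT repeat ATATATAT was in 3.022% against 0.9615% (exact adjusted p = 0.0262), and it did not pass without replicate 1 (0.0585) or without replicate 2 (0.168).

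The motifs less frequent at summits were GCCAT of the Polycomb recruiter Pho, in 13.05% against 21.02% (exact adjusted p = 6.77e-04), the E-box CAGCTG, in 2.060% against 5.357% (adjusted p = 0.00347), and the repeat CACACACA, in 0.5495% against 3.159% (adjusted p = 9.08e-04). Without replicate 1, CAGCTG was at -2.20 percentage points, against -3.30 over both replicates, and did not pass (exact adjusted p = 0.0729). Motif frequency moved with base composition. Among windows with 60 to 70% A and T, TAAT was in 80.51% of 272 summit windows (interval 75.40 to 84.78%) and 76.76% of 142 flank windows (69.16 to 82.95%), and the intervals overlap. In the same windows TATAAA was in 17.65% (13.58 to 22.62%) and 21.13% (15.22 to 28.56%). The Exd and Hox composite TGATNNAT was in 9.926% of these summit windows and 8.451% of these flank windows. It was in 3.614% and 4.636% with 50 to 60% A and T, and in 13.58% and 14.81% with 70 to 80%. GCCAT was in 15.07% and 14.79% with 60 to 70%, 13.25% and 24.83% with 50 to 60%, and 8.333% and 11.11% with 70 to 80%. For TGATNNAT and GCCAT the summit and flank intervals overlap in each of these ranges. TGCATA in windows with 50 to 60% A and T was in 19.28% of 83 summit windows (12.23 to 29.04%) and 8.278% of 302 flank windows (5.670 to 11.93%), which do not overlap. With 60 to 70% A and T it was in 8.824% (6.001 to 12.79%) of summit and 6.338% (3.370 to 11.61%) of flank windows, and with 70 to 80% in 12.65% (9.467 to 16.72%) and 11.11% (3.852 to 28.06%), and these intervals overlap.

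Distal and near intergenic summits differed in 3 motifs of 58 tests over 29 motifs and both comparison classes (Fisher's exact test, adjusted over all 58). TATCGATA, the DREF element of housekeeping promoters, was in 0.1374% of member windows against 2.866% of near intergenic ones (exact adjusted p = 3.84e-05), and CCGATA, letters bound by the boundary protein BEAF-32, in 1.099% against 3.407% (adjusted p = 0.0141). TGCATA was more frequent in members, at 11.95% against 6.652% (exact adjusted p = 5.75e-04). Against far intron summits 0 motifs passed Fisher's exact test after adjustment and 2 had an unadjusted p under 0.05. TAAT was in 80.63% of member windows and 77.94% of far intron windows, a difference of 2.688 points (interval -0.8985 to 6.083, exact adjusted p = 0.399).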

How the data were processed

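Chromatin immunoprecipitated through GFP was sequenced from 1 group of larvae in 2 biological replicates, as the labels state. Peak lists were deposited: 30000 peaks for each replicate and for the pooled replicates, and a thresholded list of 7223, per the file listings. The signal column was deposited by the authors' caller on an unstated scale and was used to rank and describe peaks. The control library and the dm3 lists were not analysed here. For the aligner and the peak caller, a name is not given in the sources used here.

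Summits were placed on the Ensembl BDGP6 annotation, release 115, and Release 6 sequence. Eligible sequence follows the same rule as the members; unknown bases were left out. Classes were compared by Fisher's exact tests, densities and shares by exact binomial tests, and summit with flank windows by exact McNemar and sign tests. Tests were two-sided, and p-values were adjusted by Benjamini-Hochberg within a family and called under 0.05. Functions were tested on simulated data with planted motifs. The members, gene lists and motifs were chosen with earlier results of these data known.

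Named genes are those flanking the 20 strongest members, intervals with 3 or more members, the 5 farthest members, the strongest members of each gene list, the members nearest the limit, OdsH and unc-4; other genes of the lists were chosen after their values were seen. Alternatives changed the distance, annotation, list, windows and flanks, or left out a replicate by taking the 7223 strongest peaks of the other. Tools were pandas 2.3.3, scipy 1.17.1, numpy 2.4.6 and matplotlib 3.10.9 under Python 3.11.15.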

Additional observations from a re-analysis of the deposited data

How the results depend on the processing

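The density ratios, the shares of 3L, X and 2R and the A and T difference kept their direction and stayed past the threshold under every alternative run for them. The density ratio to far intron ran from 0.50 to 0.724, the 3L excess from 8.42 to 11.9 points and the A and T difference from 10.9 to 15.8 points. With starts over 1000 bp away, convergent intervals were at -3.73 points (exact adjusted p = 0.0107), the share above the median signal, against near intergenic, at -4.62 (0.0734) and members beside developmental genes at 31.9%. Over 5000 bp, there were 394 members, divergent intervals at 3.41 points (0.154), the share above the median signal at -5.0 (0.211), 3 motifs more and 1 less frequent, and 41.4% beside developmental genes. With coding genes only, divergent intervals were at 2.98 points (0.0767), 5 motifs were less frequent and 31.7% of members were beside developmental genes. Summits above the median signal gave 355 members, divergent intervals at 1.57 points and 2 motifs more frequent. Over 1000 bp from gene bodies, convergent intervals were at -4.19 points (0.0174).

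Leaving out either replicate gave 694 to 726 members, divergent intervals from 2.97 to 5.01 points, the share above the median signal against near intergenic from -8.55 to -4.75 points, and 2 to 5 motifs less frequent. Further settings were chosen after seeing the data. Without repeat-masked sequence, divergent intervals were at 3.80 points (0.111). With the strongest member of each interval, the share above the median signal was at 16.7 points against far intron (exact adjusted p = 1.79e-07) and 8.78 against near intergenic, a reversed direction, and both replicates matched 4.91 points more often than for other summits (0.0353); this setting selects on signal by construction. With the first member by coordinate instead, the share above the median signal against near intergenic was at -6.36 points (0.115), and 3 motifs were more and 1 less frequent. TAAT and TATAAA passed under all 14 alternatives run for each motif. None of these alternatives matched summit and flank windows on A and T content. Among windows with 50 to 60%, 60 to 70% or 70 to 80% A and T, the summit and flank intervals of TAAT and of TATAAA overlap. GCCAT passed under 13 of the 14 and the CA repeat under 12. The Exd and Hox composite and the Su(Hw) core passed under 11 each and the E-box CAGCTG under 8. Facing cores spaced by 2 bases and the AT repeat passed under only 7 each. The cause of these losses was not tested.

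No paired analysis was possible because there is 1 group. Depth is unknown and the signal has no stated scale, so weak members cannot be given a counting error. The control library was not analysed here. The relaxed lists were capped at 30000 peaks.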
